A study of Mus musculus with 52 samples.

Results

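The cytohesins are a family of 4 genes, Cyth1, Cyth2, Cyth3 and Cyth4, here followed across mouse mammary tumours of young and aged hosts. The members were taken by gene symbol, each matched to 1 Ensembl identifier, and are 4 of the 47729 identifiers in the deposited tables. The family was chosen by the measured level of Cyth1, which had already been seen to be low in tumours of aged mice in these data, so the values of Cyth1 by age are a description and carry no test. All 4 members passed the filter on low counts.

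Cytohesins are guanine nucleotide exchange factors: through a SEC7 domain they load ARF GTPases with GTP at membranes, and through a pleckstrin homology domain they bind phosphoinositides made by phosphoinositide 3-kinases. Active ARF proteins steer vesicle traffic, actin remodelling and integrin recycling. CYTH1, the human counterpart of Cyth1, is known for binding the cytoplasmic tail of the leukocyte integrin beta chain (Itgb2 in mouse); Cyth2, also named ARNO, and Cyth3, also named GRP1, are broadly expressed, and Cyth4 is known mainly from blood cells.

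RNA was measured in 52 tumours grown from 4T1 cells, a mouse mammary carcinoma line, of which 100000 were placed in a mammary fat pad of Balb/C mice. By their own labels young hosts were 8 to 10 weeks old, while the growth protocol gives up to 12 weeks, and aged hosts were over 12 months old. Each host received 3 doses of 200 µg of an isotype antibody (clone LTF-2), anti-PD-L1 (clone 10F.9G2) or anti-CTLA4 (clone 9D9) on days 7, 10 and 13. In young hosts 7 tumours received isotype, 10 received anti-PD-L1 and 12 received anti-CTLA4, and in aged hosts 7, 8 and 8. All groups carried the same tumour line and strain, and the labels do not say whether each tumour came from its own mouse, so a p-value here reflects how far the sampled tumours spread, which may be technical. A tumour is a mix of carcinoma and host cells. In such bulk samples, fewer cells of a type and less RNA per cell cannot be told apart.

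Library totals ran from 9549847 to 53778370 counts, with a median of 20665734. The labels number 3 batches, which cross the groups unevenly: the young isotype tumours were all in batch 2, the aged isotype tumours in batches 1 and 3, the aged anti-PD-L1 tumours all in batch 1, and no aged tumour was in batch 2. Age was therefore compared within a batch only under anti-CTLA4, with 4 young and 7 aged tumours in batch 1 and 5 young and 1 aged in batch 3. Elsewhere the fitted age difference leans on the batch term estimated from the other groups. Epithelial markers of the tumour (Epcam, Krt8 and 6 others) and leukocyte markers (Ptprc and 8 others) were all detected in every group. A TMM normalization factor under 0.8 was found in 4 libraries, namely young isotype replicates 1 and 6, young anti-CTLA4 replicate 8 and aged isotype replicate 3, and the values of Cyth1 and Cyth4 by age are given with and without them.

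Cyth1 lies on chromosome 11 of mm10 (GRCm38) at chr11:118132019-118248592 on the minus strand, and GENCODE lists 7 transcripts for it, 5 of them coding. In TPM, a deposited level scaled to transcript length and to the whole library, the young isotype tumours had a lowest value of 53.9, a median of 104 and a highest of 165. The young anti-PD-L1 tumours ran from 57.3 through a median of 91.1 to 140, and the young anti-CTLA4 tumours from 93.8 through 114 to 233. The ranges of the 3 young groups overlapped in each pair.

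Aged tumours were far below this. Aged isotype tumours ran from 5.56 through a median of 12.7 to 31.3 TPM, aged anti-PD-L1 tumours from 11.5 through 17.8 to 28.7, and aged anti-CTLA4 tumours from 11.4 through 22.4 to 38.5. Ordered by median, the groups fell in the sequence young anti-CTLA4, young isotype, young anti-PD-L1, aged anti-CTLA4, aged anti-PD-L1, aged isotype. Neighbours in that order overlapped, except at the step from young anti-PD-L1 to aged anti-CTLA4, where the ages parted.

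No aged tumour reached the lowest young one. The closest pair was young isotype replicate 7 at 53.9 TPM and aged anti-CTLA4 replicate 6 at 38.5 TPM, a ratio of 1.40. In CPM, a count scaled by library size with TMM and not by length, the young tumours ran from 80.6 to 854 and the 23 aged tumours from 17.9 to 50.6. Of 17899 genes tested, 9 (0.0503%) were lower in every aged than in every young tumour on this scale and 2 (0.0112%) were higher in every one. Within isotype, anti-PD-L1 and anti-CTLA4 taken alone, 1.78%, 1.12% and 0.911% of genes were lower in every aged tumour. The other genes set apart in this way were Gm21748, Gm21860, Glp1r, G530011O06Rik, Mup10, Gm12164, Mid1 and Cish on the lower side, and Macc1 and Zfp81 on the higher side. Gm21748 and Gm21860 had the same lowest and highest CPM in both ages, as near-identical copies that share reads would, so they may count as 1. Of these, Mid1, a microtubule-associated ubiquitin ligase gene, had 12.8 to 49.8 CPM in young and 4.46 to 12.6 CPM in aged tumours, and Cish, a target and inhibitor of cytokine receptor signalling, had 26.9 to 127 and 7.33 to 26.6 CPM.

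**Figure D1:**
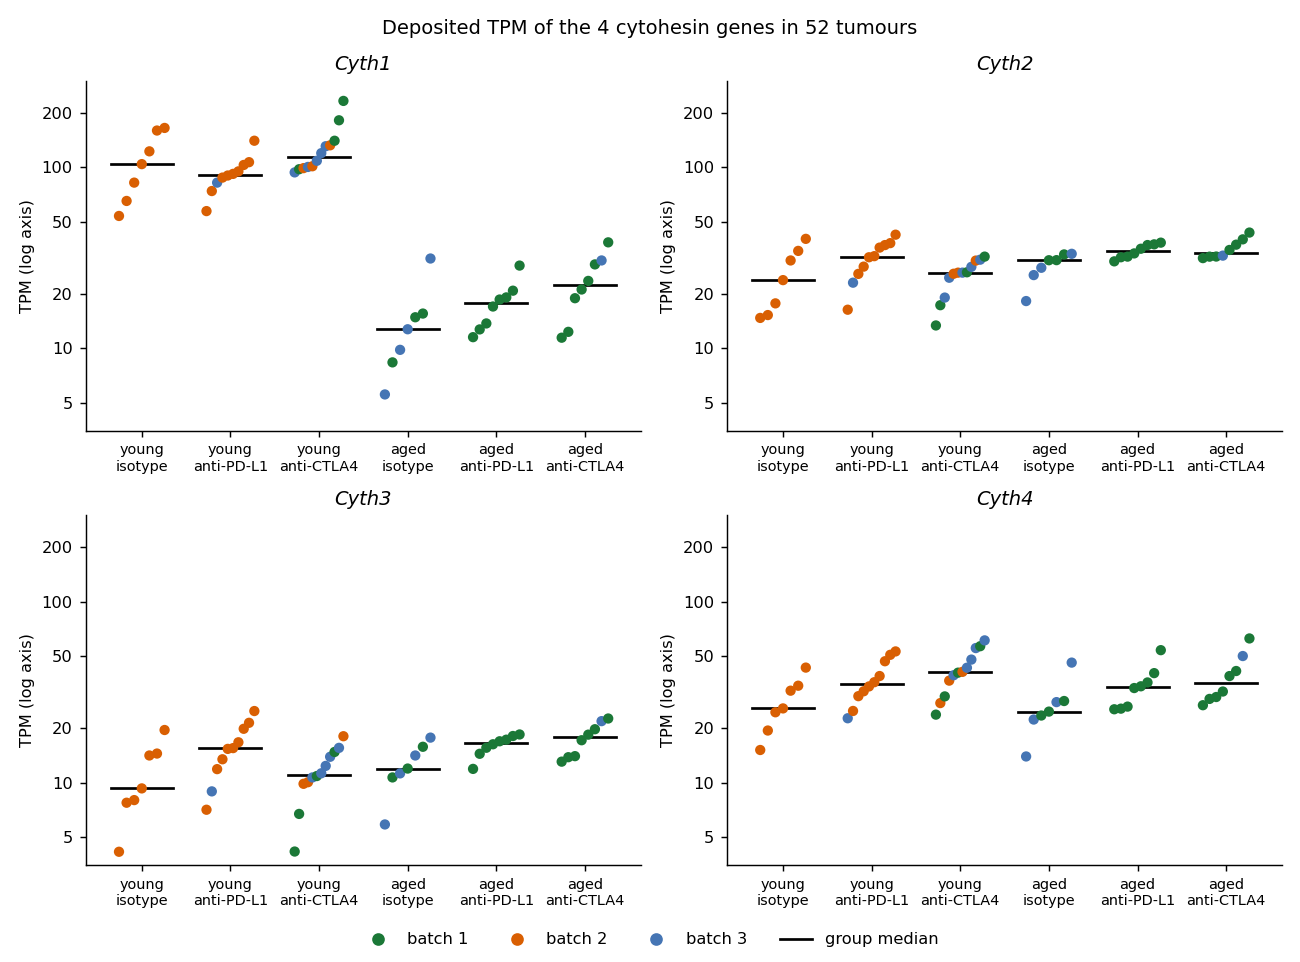
Deposited TPM (log axis) of each cytohesin in the 52 tumours, 1 point per tumour, coloured by batch, with the group median as a line. The 29 young tumours all sit above the 23 aged tumours for Cyth1 (lowest young 53.9, highest aged 38.5), while the groups overlap for Cyth2, Cyth3 and Cyth4.

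The mean of Cyth1 in CPM was 307 ± 226 (SD, n = 7) in young isotype and 28.6 ± 11.0 (n = 7) in aged isotype tumours, a ratio of 10.7. Under anti-PD-L1 the means were 172 ± 60.4 (n = 10) and 30.7 ± 7.30 (n = 8), a ratio of 5.63. Under anti-CTLA4 they were 287 ± 201 (n = 12) and 37.3 ± 10.2 (n = 8), a ratio of 7.70. When the 4 libraries of low TMM factor were left out, the isotype means were 207 ± 136 (n = 5) and 30.1 ± 11.3 (n = 6), a ratio of 6.87, and the anti-CTLA4 ratio was 6.32. The young spread was wide because a few tumours were very high, the highest being young anti-CTLA4 replicate 8 at 854 CPM and young isotype replicate 6 at 728 CPM. On the TPM scale, which does not use the TMM factors, the same 3 ratios were 7.67, 5.23 and 5.53.

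In the edgeR fit with group and batch terms, the log2 fold change of Cyth1 in aged against young tumours was -3.60 ± 0.51 (SE) under isotype, -2.98 ± 0.48 under anti-PD-L1 and -3.12 ± 0.35 under anti-CTLA4. These are differences and carry no test. Across all genes, the share past an adjusted p of 0.05 was 8.41%, 5.04% and 30.6% in the same 3 comparisons, of which 4.04%, 1.97% and 15.9% were falls, and nothing is read from it for Cyth1. Without the 4 libraries of low TMM factor the values were -2.71, -2.54 and -2.69, and the young isotype range narrowed to 80.6 to 418 CPM. Within batch 1 the anti-CTLA4 value was -3.56 ± 0.33, and within batch 3, with 1 aged tumour, -2.12 ± 0.47.

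By batch, the values of Cyth1 follow from the separation over all tumours and are given as a description. In batch 1 the 4 young tumours had 97.7 to 233 TPM and the 18 aged tumours 8.36 to 38.5. The young ones were all anti-CTLA4, and the aged ones were 7 anti-CTLA4, 8 anti-PD-L1 and 3 isotype tumours. In batch 3 the 6 young tumours had 82.3 to 131 TPM and the 5 aged tumours 5.56 to 31.3. There the young were 5 anti-CTLA4 and 1 anti-PD-L1, and the aged 4 isotype and 1 anti-CTLA4. Over all tested genes, 1.99% in batch 1 and 4.97% in batch 3 were lower in every aged tumour by CPM. Age is mixed with antibody in all of these values.

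Antibody differences of Cyth1 were of the size of their standard errors where they were tested. In aged hosts its log2 fold change against isotype was -0.21 ± 0.38 under anti-PD-L1 (edgeR quasi-likelihood test, Benjamini-Hochberg adjusted p = 0.743) and 0.15 ± 0.36 under anti-CTLA4 (adjusted p = 0.801), and neither passed. The anti-PD-L1 value changed sign without a batch term (0.10) and with the compared groups alone (0.20), and 5 of 8 treated tumours lay above the isotype median. In both comparisons 0% of the tested genes passed in edgeR, with 5379 and 5321 genes at an unadjusted p under 0.05, while DESeq2 called 2047 and 1362 genes. Without aged isotype replicate 5, edgeR called 3091 and 2745 genes. No cytohesin was among the genes called in DESeq2 or without that tumour. Anti-CTLA4 against anti-PD-L1 gave 0.50 ± 0.36 in young (adjusted p = 0.658) and 0.36 ± 0.33 in aged hosts (adjusted p = 1), and again 0% of genes passed in edgeR, with 1242 and 243 genes at an unadjusted p under 0.05 and 13 and 18 called by DESeq2. In young hosts, where no test is given for Cyth1, the values against isotype were -0.83 ± 0.31 under anti-PD-L1 and -0.33 ± 0.41 under anti-CTLA4, and 9 of 10 and 9 of 12 treated tumours lay below the isotype median.

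Cyth1 has several annotated starts, and a value per gene cannot say which of them changed with age. RefSeq places 3 promoter windows on the gene. The bases before each start are shown because they belong to the member with the largest age difference. Cyth4 is set beside them as a member whose level followed leukocyte markers over all tumours, as Cyth1 also did in aged tumours. Sequences are from RefSeq on GRCm38.p6, 5′ to 3′ on the gene's strand, cut where an annotated exon begins. Capitals mark GGGCGG on either strand, the GC box bound by SP family factors, and TTCNNNGAA, the core of STAT binding sites. The outer Cyth1 window is chr11:118248617-118248808, the inner ones are chr11:118212743-118212981 and chr11:118202731-118202980, and the Cyth4 window is chr15:78596797-78597046 on the plus strand.
Cyth1 outer start: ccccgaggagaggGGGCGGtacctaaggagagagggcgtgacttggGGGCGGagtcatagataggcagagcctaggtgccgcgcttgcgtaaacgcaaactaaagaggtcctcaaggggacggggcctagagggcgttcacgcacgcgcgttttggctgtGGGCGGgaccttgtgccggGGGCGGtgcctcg
Cyth1 middle start: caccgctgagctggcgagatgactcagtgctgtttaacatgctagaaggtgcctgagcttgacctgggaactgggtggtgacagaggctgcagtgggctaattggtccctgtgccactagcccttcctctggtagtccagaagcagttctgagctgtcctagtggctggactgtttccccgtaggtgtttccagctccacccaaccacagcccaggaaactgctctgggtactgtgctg
Cyth1 inner start: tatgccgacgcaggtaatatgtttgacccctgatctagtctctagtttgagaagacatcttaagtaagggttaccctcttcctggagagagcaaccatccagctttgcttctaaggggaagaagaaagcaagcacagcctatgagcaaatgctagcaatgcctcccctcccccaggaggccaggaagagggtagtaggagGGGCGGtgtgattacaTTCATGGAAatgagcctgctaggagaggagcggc
Cyth4 start: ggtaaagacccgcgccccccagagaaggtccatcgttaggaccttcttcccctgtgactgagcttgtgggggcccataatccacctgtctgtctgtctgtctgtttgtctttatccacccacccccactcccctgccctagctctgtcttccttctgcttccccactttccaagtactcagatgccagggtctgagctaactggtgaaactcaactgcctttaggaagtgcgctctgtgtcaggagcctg

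The outer Cyth1 window is rich in CG dinucleotides, with 18 in 192 bases and 4 GC boxes. The middle window has 3 CG in 239 bases and no GC box, and the inner one has 4 CG in 250 bases, 1 GC box and 1 TTCNNNGAA. The bases after the inner start matched 0 GENCODE transcripts of Cyth1, while those after the outer and the middle start each matched 2. The Cyth4 window has 4 CG in 250 bases and neither motif. Over all 32851 promoter windows of the table, cut to the 250 bases before the start, the median was 6 CG, 32.7% held a GC box and 7.02% held TTCNNNGAA. These matches describe the letters of the windows, and no binding was measured.

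Dnah17, an axonemal dynein heavy chain gene, lies 1385 bases below the downstream end of Cyth1 on the same strand, and it was low in aged tumours as well. Its CPM ran from 3.15 through a median of 11.3 to 39.6 in young tumours and from 0.434 through 1.75 to 4.42 in aged tumours, so the ages overlapped slightly. Within an age no relation of Dnah17 with Cyth1 passed (2 relations computed), with r = -0.03 and rho = 0.05 in young tumours (n = 29, adjusted permutation p = 0.876 and 0.816) and r = -0.16 and rho = -0.05 in aged tumours (n = 23, the same adjusted p). Without the 2 tumours farthest out r was 0.02 and -0.26, and within batches it was -0.06 and 0.02 in young (batches 2 and 3) and -0.22 in aged tumours (batch 1). Dnah17 fell by 3.53 ± 0.68 on the log2 scale under isotype (adjusted p = 0.00152), by 3.23 ± 0.66 under anti-PD-L1 (adjusted p = 0.0051) and by 2.95 ± 0.43 under anti-CTLA4 (adjusted p = 3.43e-06). Under isotype and anti-PD-L1 no batch held both ages, so those fitted values lean on the batch term. There the mean CPM in young and aged tumours was 10.0 and 1.76 under isotype and 12.3 and 2.22 under anti-PD-L1. Only 1 of the 7 annotated Cyth1 transcripts runs to the downstream end of that gene, and the next ends at position 118164166. At its other end Dnah17 overlaps Pgs1 on the opposite strand, and the sources used here do not say whether strand entered the authors' estimates.

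Genes further out on either side differed less. Socs3, an inhibitor of cytokine receptor signalling 161972 bases away, fell by 0.68 ± 0.19 under anti-PD-L1 (adjusted p = 0.0323) and by 0.56 ± 0.13 under anti-CTLA4 (adjusted p = 0.000999); under isotype its value was -0.58 ± 0.20 (adjusted p = 0.0561). Its anti-PD-L1 call was lost without a filter on low counts (adjusted p = 0.0894). Pgs1, which makes a precursor of cardiolipin, fell by 0.28 ± 0.10 under anti-CTLA4 (adjusted p = 0.0284) and did not pass in the other 2 age comparisons. That call was lost without a filter, with the compared groups alone and within batch 1 (adjusted p from 0.0995 to 0.154). Usp36, Timp2 and Cep295nl, on the upstream side of Cyth1, passed in none of the 3 age comparisons, with log2 fold changes from -0.71 to 0.10.

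**Figure D2:**
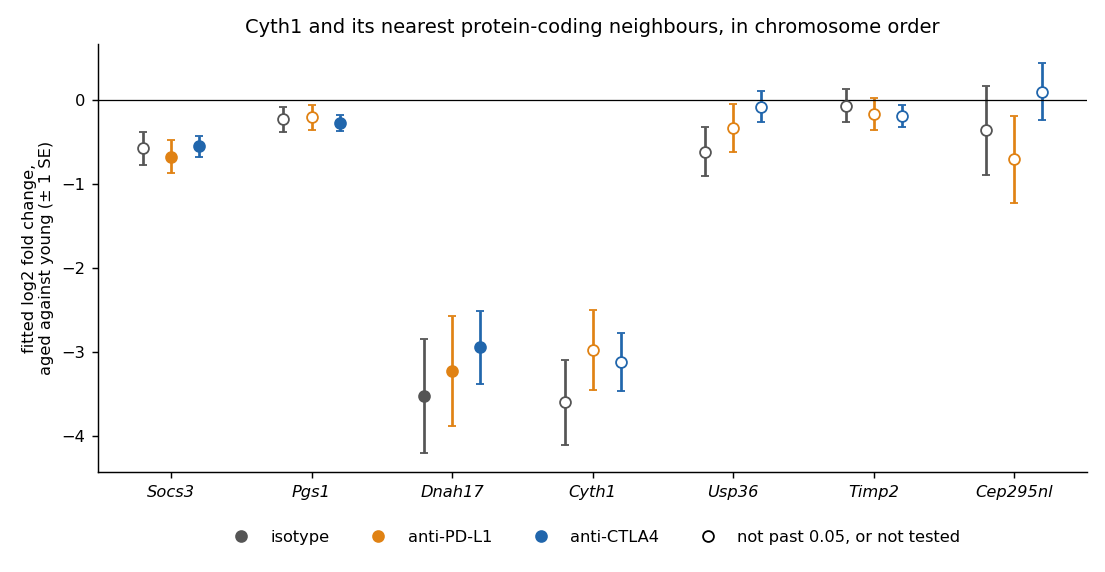
Fitted log2 fold change in aged against young tumours (points, ± 1 SE) under each antibody for Cyth1 and the 3 nearest protein-coding genes on each side, in chromosome order. Cyth1 (-3.60 to -2.98, not tested) and its closest neighbour Dnah17 (-3.53 to -2.95) lie far below the other genes.

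Cyth2, broadly expressed, was measured at 13.4 to 42.5 TPM in young and 18.2 to 43.6 TPM in aged tumours. By group, its median TPM was 34.5 in aged anti-PD-L1, 33.7 in aged anti-CTLA4, 32.1 in young anti-PD-L1, 30.7 in aged isotype, 26.2 in young anti-CTLA4 and 23.8 in young isotype tumours. Every neighbouring pair in that order overlapped. Its log2 fold change with age was 0.26 ± 0.17 under anti-PD-L1 (adjusted p = 0.364) and 0.24 ± 0.12 under anti-CTLA4 (adjusted p = 0.113), and neither passed. Within batch 1 alone, the anti-CTLA4 value was 0.34 ± 0.10 with an adjusted p of 0.0137. Under isotype it was 0.38 ± 0.17, with no test, and 0.11 without a batch term.

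Cyth3, whose pleckstrin homology domain is a textbook sensor of phosphoinositide 3-kinase products, had the lowest TPM of the family in 29 of 29 young and 12 of 23 aged tumours. Young tumours ran from 4.16 through a median of 12.4 to 24.9 TPM, and aged tumours from 5.88 through 15.8 to 22.7 TPM. In CPM the young anti-CTLA4 tumours ran from 29.0 through 42.4 to 59.7 and the aged ones from 47.6 through 55.4 to 63.7. The groups overlapped, with 8 of 8 aged tumours above the young median. Cyth3 rose with age under anti-CTLA4 by 0.51 ± 0.12 (edgeR, adjusted p = 0.000847), a comparison in which 14.8% of all tested genes rose. Within batch 1 the value was 0.58 ± 0.13 (adjusted p = 0.00233) and within batch 3 it was 0.52 ± 0.23 (adjusted p = 0.357), with 1 aged tumour there. Under anti-PD-L1 it was 0.47 ± 0.17 (adjusted p = 0.0906), or 0.08 without a batch term; without aged isotype replicate 3 it was 0.52 with an adjusted p of 0.0467. Under isotype, with no test, it was 0.52 ± 0.17, or 0.12 without a batch term.

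Cyth4, the family member of blood cells, ran from 15.2 through a median of 35.9 to 61.2 TPM in young and from 14.0 through 29.8 to 62.7 TPM in aged tumours. Under anti-CTLA4 the young tumours had 95.6 to 149 CPM with a median of 115, and the aged tumours 68.0 to 115 CPM with a median of 87.6. The ranges overlapped, and 8 of 8 aged tumours lay below the young median. Cyth4 fell with age under anti-CTLA4 by 0.37 ± 0.12 (adjusted p = 0.0182), where 15.9% of all tested genes fell. Leukocyte markers moved the same way: 6 of 9 fell in this comparison with a list median of -0.74, and their summed CPM ran from 1066 to 4735 in young and 1047 to 2167 in aged tumours. With the leukocyte level as a covariate the Cyth4 value was -0.15 ± 0.11 (adjusted p = 0.345), and the part of leukocyte content in the fall was not tested. The call was also lost without the 4 libraries of low TMM factor, at -0.32 ± 0.13 (adjusted p = 0.0728), within batch 1, at -0.42 ± 0.16 (adjusted p = 0.0521), within batch 3 (adjusted p = 0.736) and without a filter on low counts (-0.32, adjusted p = 0.0995). Under anti-PD-L1 the value was -0.11 ± 0.19 (adjusted p = 0.760), and under isotype, with no test, -0.18 ± 0.19.

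Antibodies gave no call for Cyth2, Cyth3 or Cyth4 against isotype in either age, nor for anti-CTLA4 against anti-PD-L1, nor for the difference of an antibody effect between ages. In young hosts 1.59% of all genes passed under anti-PD-L1 and 0.0726% under anti-CTLA4, and 0% passed in edgeR in the other 6 of these comparisons. The differences of an antibody effect between ages had 655 and 1257 genes at an unadjusted p under 0.05, and DESeq2 called 30 and 16. Among these values the lowest adjusted p was 0.352 in edgeR, for Cyth3 under anti-PD-L1 in young hosts. By unadjusted p, Cyth4 came closest to a call. All 12 young anti-CTLA4 tumours lay above the young isotype median of 88.6 CPM and above the young anti-PD-L1 median of 91.0 CPM. Its log2 fold change was 0.37 ± 0.16 against isotype (p = 0.0230, adjusted p = 0.589, edgeR) and 0.35 ± 0.14 against anti-PD-L1 (p = 0.0169, adjusted p = 0.657, edgeR). Without a batch term the value against isotype was 0.36 with an adjusted p of 0.0417.

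**Figure D3:**
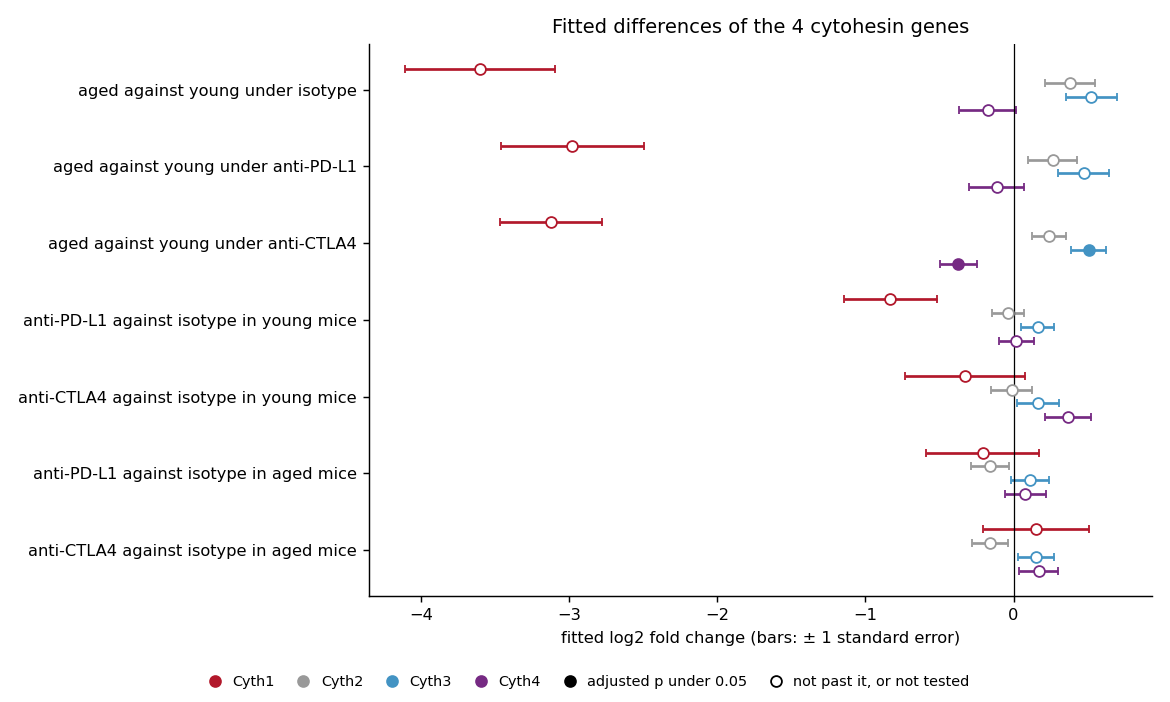
Fitted log2 fold changes of the 4 cytohesins (points, ± 1 SE) in 3 age and 4 antibody comparisons; filled points passed an adjusted p of 0.05, and open points did not pass or were not tested. Cyth3 (0.51) and Cyth4 (-0.37) in aged against young tumours under anti-CTLA4 are the filled points, and Cyth1 lies near -3 in each age comparison.

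The make-up of the family by TPM differed between host ages most plainly in the place of Cyth1. This member had the highest TPM of the 4 in 29 of 29 young tumours and in 0 of 23 aged tumours, and the lowest in 11 of 23 aged tumours. Its median share of the summed family TPM was 64.4% in young isotype, 52.6% in young anti-PD-L1 and 58.0% in young anti-CTLA4 tumours, against 14.5%, 17.8% and 20.9% in the aged groups. The sum over the family had a median of 185 TPM in young and 95.1 TPM in aged tumours. Without Cyth1 the sums were 82.7 and 81.2 TPM, with ranges of 34.6 to 118 and 38.1 to 125.

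**Figure D4:**
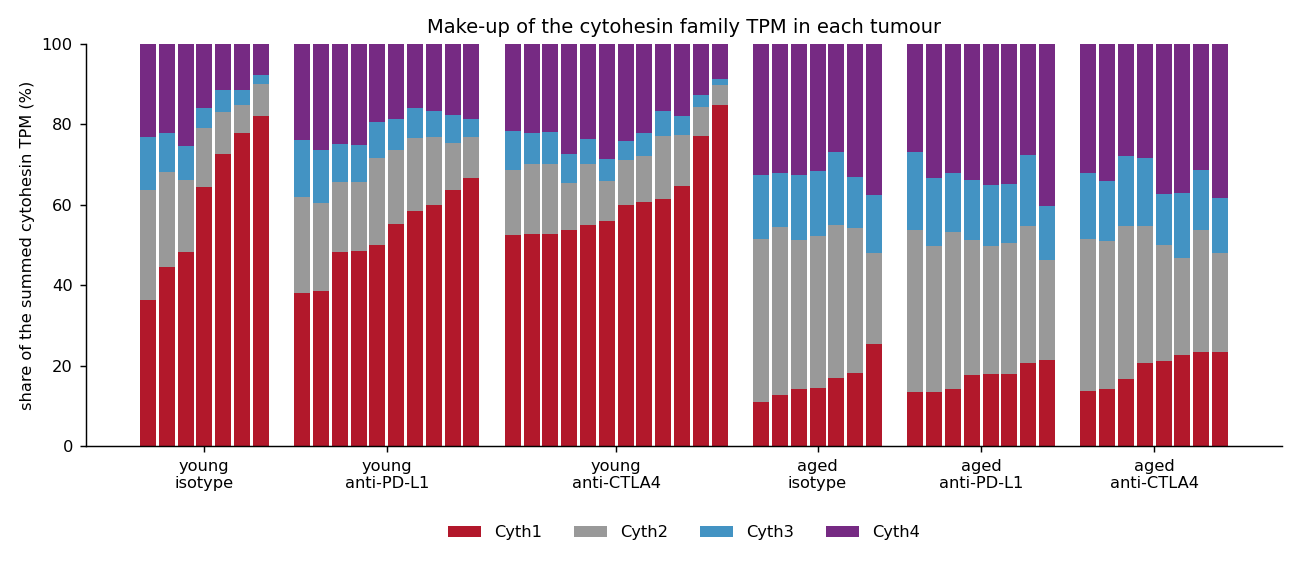
Share of the summed cytohesin TPM held by each member, 1 bar per tumour, ordered within each group by the share of Cyth1. Cyth1 takes 36.4 to 84.9% of the family TPM in young and 11.0 to 25.5% in aged tumours.

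Across tumours, the levels of the members ran with different marker lists. Each relation was computed over tumours on log2 CPM against the mean log2 CPM of a marker list, as 1 of 80 relations, with permutation p-values adjusted over the 80. Cyth4 rose with the leukocyte level (r = 0.69, adjusted permutation p = 5e-05; rho = 0.70, adjusted p = 8.89e-05; n = 52) and with macrophage markers such as Csf1r (r = 0.71, adjusted permutation p = 5e-05; rho = 0.72, adjusted p = 8.89e-05). Without the 2 tumours farthest out in the marker level, r was 0.66 for both lists. Within batches 1, 2 and 3 the leukocyte r was 0.79, 0.52 and 0.76, and the macrophage r was 0.83, 0.52 and 0.71.

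Cyth2 and Cyth3 ran with the epithelial markers of the tumour. For Cyth2, r was 0.77 (adjusted permutation p = 5e-05) and rho 0.56 (adjusted p = 0.000308), with 0.65 without the 2 farthest tumours and 0.66, 0.79 and 0.80 within the batches. Cyth2 also ran with skeletal muscle markers, with r = 0.60 (adjusted permutation p = 5e-05) and rho = 0.69 (adjusted p = 8.89e-05). That r was 0.61 without the 2 farthest tumours and 0.80, 0.46 and 0.75 within the batches. The muscle level rested on Tnnt3, Ckm and Mylpf alone, since Acta1 and Myh4 did not pass the filter on low counts. It was also low: the summed CPM of the 5 markers had group medians from 4.97 (young anti-CTLA4) to 26.8 (aged isotype). For Cyth3, r was 0.70 (adjusted permutation p = 5e-05) and rho 0.60 (adjusted p = 0.000133), with 0.66 without the 2 farthest and 0.82, 0.57 and 0.74 within the batches. Both went against the leukocyte level, with r = -0.73 and rho = -0.61 for Cyth2 (adjusted permutation p = 5e-05 and 8.89e-05) and r = -0.64 and rho = -0.54 for Cyth3 (adjusted permutation p = 5e-05 and 0.000343). Leaving out the 2 farthest tumours gave r = -0.66 and -0.52, and within batches 1, 2 and 3 it was -0.78, -0.55 and -0.87 for Cyth2 and -0.73, -0.48 and -0.63 for Cyth3. The epithelial level itself was higher in aged tumours, with a median of 7.13 against 6.81 in log2 CPM. Under anti-CTLA4, 4 of 8 markers rose with age, where 14.8% of all tested genes rose. The part of the epithelial level in the age difference of Cyth3 was not tested.

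Cyth1 was looked at within each age, since the ages form separate clusters. In young tumours it tracked ribosomal protein genes, used here as a sign of library make-up (r = 0.87, adjusted permutation p = 5e-05; rho = 0.78, adjusted p = 8.89e-05; n = 29). The relation was 0.80 without the 2 farthest tumours and 0.92 within batch 2, but -0.05 over the 6 young tumours of batch 3, and batch 1 held too few. In aged tumours the sign was the opposite (r = -0.59, adjusted permutation p = 0.00625; rho = -0.53, adjusted p = 0.0181; n = 23), with -0.45 without the 2 farthest and -0.48 within batch 1. Aged Cyth1 rose with leukocyte markers (r = 0.60, adjusted permutation p = 0.00625; rho = 0.62, adjusted p = 0.00614), with 0.49 without the 2 farthest and 0.54 within batch 1, and with macrophage markers (r = 0.68, adjusted permutation p = 0.00122; rho = 0.71, adjusted p = 8e-04), with 0.71 without the 2 farthest and 0.69 within batch 1. In young tumours the macrophage relation was -0.15 (adjusted permutation p = 0.494; rho = -0.13, adjusted p = 0.516), or 0.04 without the 2 farthest, with -0.35 and -0.00 within batches 2 and 3. For the leukocyte list in young tumours r was 0.36 (adjusted permutation p = 0.0847) and rho 0.47 (adjusted p = 0.0209). Without the 2 farthest r was 0.33, and it was 0.39 and 0.13 within batches 2 and 3. Other immune lists did run with Cyth1 in young tumours. For natural killer cells r was 0.56 (adjusted permutation p = 0.00506; rho = 0.55, adjusted p = 0.00709), with 0.51 without the 2 farthest and 0.58 and -0.03 within batches 2 and 3. For neutrophils it was 0.51 (adjusted permutation p = 0.0111; rho = 0.50, adjusted p = 0.0135), with 0.27 without the 2 farthest and 0.47 and 0.71 within the batches. For T cells it was 0.43 (adjusted permutation p = 0.0356; rho = 0.52, adjusted p = 0.00953), with 0.35 without the 2 farthest and 0.38 and 0.20 within the batches. Of 16 lists, 6 ran with Cyth1 and 2 against it in young tumours, and 4 ran with it and 2 against it in aged tumours, by the adjusted permutation p of r. The passing lists not yet named had r of similar size. In young tumours they were skeletal muscle (r = 0.52), platelets (0.48), fibroblasts (-0.51) and mammary secretory epithelium (-0.49). By rho the fibroblast relation did not pass (adjusted permutation p = 0.0516). In aged tumours they were adipocytes (r = 0.54), endothelium (0.52) and skeletal muscle (-0.51). Whether a relation differed between the ages was not tested. The ribosomal protein level had about the same median at both ages (9.84 in young and 9.89 in aged, log2 CPM). The ranges of that level overlapped between ages. The part of library make-up in the age difference of Cyth1 was not tested.

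**Figure D5:**
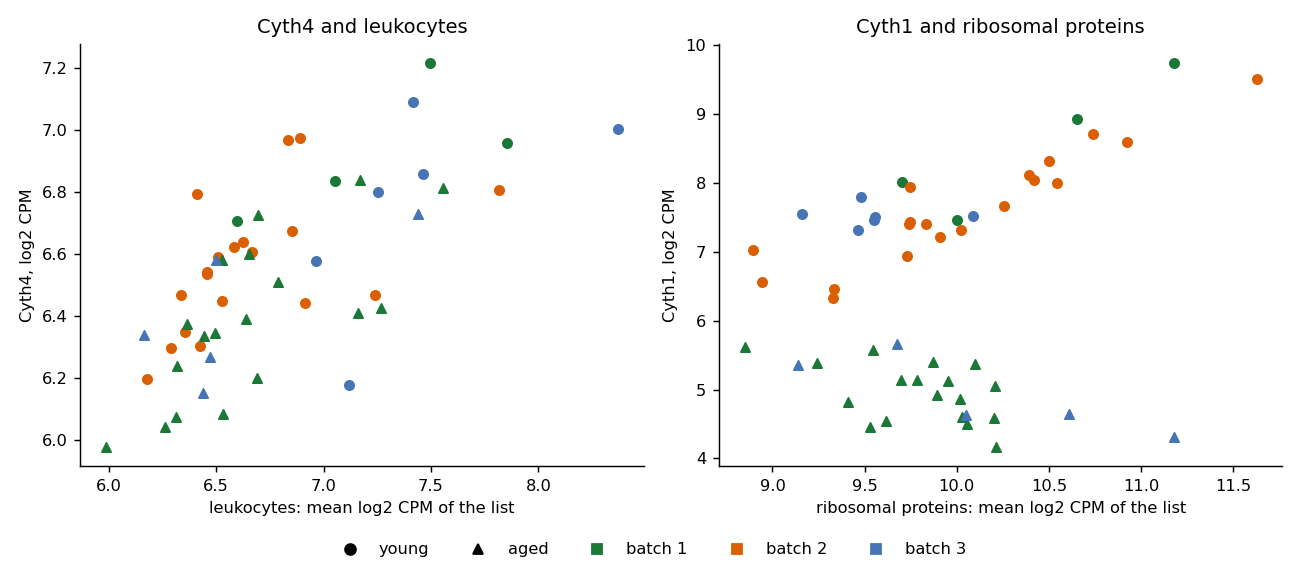
Left, Cyth4 against the mean level of 9 leukocyte markers, and right, Cyth1 against the mean level of 20 ribosomal protein genes, both in log2 CPM, 1 point per tumour, with age as shape and batch as colour. Cyth4 rises with leukocytes over all tumours (r = 0.69), and young Cyth1 rises with ribosomal protein genes (r = 0.87) while every aged tumour lies lower.

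The genes most like each member were named by Pearson's r over the 52 tumours among 13162 genes with a mean of at least 1 CPM. For Cyth4 they included Irf5 (0.88), Il10ra (0.86), Spi1 (0.85) and Nfam1 (0.85). For Cyth3 they were Erlin2, Smurf2, Stam, Eps8 and Efr3a, from 0.92 to 0.89. For Cyth2 they were Ddah2, Prmt2, Cda, H1f0 and Mtap, from 0.90 to 0.87. These 3 patterns were also seen inside each age, where the same r was 0.69 or more for every gene named here.

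For Cyth1 the genes nearest over all tumours were in part unlike it within an age. Mup10, Mup16 and Mup9, 3 major urinary protein genes whose reads near-identical copies can share, had r of 0.88, 0.86 and 0.85 over all tumours but 0.28, 0.46 and 0.37 among the young and 0.11, 0.27 and 0.34 among the aged. Pla2g5, a secreted phospholipase, had 0.49 and 0.12, and Gpr137 had 0.82 and -0.61. After group and batch terms were removed, the nearest were Mgmt (0.76), Fam92a (0.74), Gngt2 (0.74), Ifi27l2a (0.73) and Gmfg (0.72), which had r of 0.85 or more among young and 0.32 or less among aged tumours.

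The genes around cytohesins in ARF signalling showed a scattered picture. The lists held 6 ARF GTPases, 12 other exchange factors with a SEC7 domain, of which 10 were tested, 23 ARF GTPase-activating proteins, 15 partners of cytohesins, and 16 phosphoinositide enzymes and phospholipases D. In edgeR, 0 genes of these lists passed in the 4 comparisons of an antibody with isotype, with 19 and 4 list genes at an unadjusted p under 0.05 in young and 30 and 29 in aged hosts for anti-PD-L1 and anti-CTLA4. DESeq2 also called 0 in young hosts, but called 7 list genes under anti-PD-L1 and 3 under anti-CTLA4 in aged hosts. In edgeR without aged isotype replicate 5 those counts were 12 and 15, without young isotype replicate 3 anti-PD-L1 in young hosts gave 2, and without a batch term anti-CTLA4 in young hosts gave 7. In aged against young tumours under anti-CTLA4, where 30.6% of all genes passed, 7 of the 70 tested list genes rose and 13 fell. Under anti-PD-L1, with 5.04% of all genes past the threshold, 0 rose and 2 fell, and under isotype, with 8.41%, 0 rose and 4 fell. Over all genes the shares that rose were 14.8%, 3.08% and 4.36% in these 3 comparisons, and those that fell 15.9%, 1.97% and 4.04%. The isotype count of 4 hung on single libraries: it was 0 without young isotype replicate 2 or aged isotype replicate 2 and 8 without aged isotype replicate 4. DESeq2 called 9, 5 and 25 list genes under isotype, anti-PD-L1 and anti-CTLA4.

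Among the ARF GTPases, the substrates of cytohesins, Arf4 rose by 0.35 ± 0.12 (adjusted p = 0.0227) and Arf5 fell by 0.68 ± 0.17 (adjusted p = 0.00245) under anti-CTLA4. With the leukocyte level as a covariate Arf4 no longer passed (adjusted p = 0.137). The other 4, Arf6 among them, did not pass, and the list median was 0.03 against -0.06 for all genes. The other exchange factors had list medians of -0.62, -0.43 and -0.29 under isotype, anti-PD-L1 and anti-CTLA4, beside -0.09, -0.06 and -0.06 for all genes. Iqsec1, an exchange factor for the plasma membrane ARF, fell in all 3, by 1.91 ± 0.57 (adjusted p = 0.0276), 1.90 ± 0.56 (adjusted p = 0.0373) and 1.06 ± 0.33 (adjusted p = 0.0119). The isotype call was lost without young isotype replicate 2 (adjusted p = 0.0579) or aged isotype replicate 2 (adjusted p = 0.0573). The isotype and anti-PD-L1 calls were also lost without a filter, with the leukocyte covariate, with the compared groups alone and without a batch term, where the values were -0.80 and -0.84 (adjusted p over these 4 fits from 0.0520 to 0.149 and from 0.0689 to 0.0791). The anti-CTLA4 call was lost with the covariate (adjusted p = 0.0959). Iqsec1 had a mean CPM of 17.8 ± 9.21 in young isotype and 10.3 ± 3.59 in aged isotype tumours. Iqsec2 fell by 0.88 ± 0.22 under anti-PD-L1 (adjusted p = 0.0184) and by 0.78 ± 0.15 under anti-CTLA4 (adjusted p = 8.48e-05). Its anti-PD-L1 call was lost without a batch term (adjusted p = 0.0645). The Golgi exchange factors Gbf1 and Arfgef1 fell by 1.42 ± 0.45 and by 0.62 ± 0.20 under isotype (adjusted p = 0.0384 and 0.0440), calls that were lost in most fits with 1 isotype library left out, without a filter and with the covariate. Under anti-CTLA4, Psd3 rose by 1.07 ± 0.27 (adjusted p = 0.00194), Arfgef3 rose from 0.213 to 0.710 mean CPM (2.15 ± 0.50, adjusted p = 0.00108), and Psd4 fell by 0.86 ± 0.28 (adjusted p = 0.0145). The Psd4 call was lost with the covariate (adjusted p = 0.388) and within batch 1 (adjusted p = 0.0550).

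Of the 23 GTPase-activating proteins, which switch ARFs off, Adap1 fell by 1.10 ± 0.20 (adjusted p = 7.71e-05), Arap1 by 0.86 ± 0.20 (adjusted p = 0.00113) and Acap1 by 0.77 ± 0.26 (adjusted p = 0.0217) under anti-CTLA4. Acap1 also fell under isotype, by 1.22 ± 0.40 (adjusted p = 0.0434), a call lost without any 1 of 8 isotype libraries. The anti-CTLA4 call of Acap1 was lost without a filter, with the covariate, without libraries of low TMM factor and within batch 1 or 3, with an adjusted p from 0.0536 to 0.628. The list medians were -0.29, -0.11 and -0.10 under isotype, anti-PD-L1 and anti-CTLA4. Over all tested genes, 15.9% fell with age under anti-CTLA4 and 4.04% under isotype.

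The partners of cytohesins moved both ways with age under anti-CTLA4, where 15.9% of all tested genes fell and 14.8% rose. Under anti-CTLA4, 4 of 15 fell, namely the leukocyte integrin chains Itgb2 (by 0.91 ± 0.17, adjusted p = 7.41e-05) and Itgal (by 0.88 ± 0.28, adjusted p = 0.0151), the arrestin Arrb2 (by 0.63 ± 0.11, adjusted p = 6.98e-05) and the ARF-like GTPase Arl4d (by 0.78 ± 0.22, adjusted p = 0.00625). Another 4 rose, namely Ccdc120, Frmd4a, Inava and Arl4c, by 0.30 to 0.98 with adjusted p from 0.00677 to 0.0394. The phosphoinositide 3-kinase subunits Pik3cd and Pik3r5, which leukocytes express, fell by 0.81 ± 0.25 and by 0.86 ± 0.23 (adjusted p = 0.0119 and 0.00372), and the other 14 genes of their list did not pass. Leukocyte markers fell in the same comparison, as given beside Cyth4. With their level as a covariate Itgb2 (-0.70, adjusted p = 0.00227) and Arrb2 (-0.46, adjusted p = 0.00284) passed, while Itgal, Arl4d, Pik3cd, Pik3r5 and the 4 partners that rose did not pass (adjusted p from 0.121 to 0.374). The covariate is 1 mean over leukocyte markers and does not follow single leukocyte types. The part of cell make-up in any of these differences was not tested. Itgal, Arl4d, Ccdc120, Frmd4a and Inava also did not pass within batch 1 (adjusted p from 0.0682 to 0.165).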

How the data were processed

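Tumour RNA of 52 samples in 6 groups was used. Libraries were made from 500 ng RNA with a strand-marking poly(A) kit and read as 75-base pairs on a NextSeq500, per the labels' protocols. Salmon, DESeq2 1.16.1 and mm10 appear in the submitters' processing notes. The authors' deposited values per Ensembl identifier are estimated counts, all whole numbers, and TPM. The sources used here do not say how transcripts were summed to genes or whether strand entered the estimates, which leaves near-identical copies and overlapping genes uncertain. The deposited counts were in proportion to TPM times a fixed length per gene (largest log2 deviation 0.0018 over 2644 genes). Of 47729 identifiers, 47224 matched a GENCODE vM21 symbol and 505 did not.

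The members and the gene lists were chosen with earlier results of these data known. Counts were fitted in edgeR 4.0.16 (R 4.3.3) with TMM scaling, the filter by expression (17899 genes kept) and group and batch terms, over all 52 libraries in 1 fit. Genes were tested with the quasi-likelihood test and Benjamini-Hochberg adjustment over all kept genes at 0.05, and SE is the fold change over the root of F. Age differences of Cyth1 and its differences from isotype in young hosts have no test, nor has any member under isotype by age. Residuals were taken with limma 3.58.1, and correlations used 100000 permutations, whose smallest p is 1e-05. Log2 CPM used a prior count of 2. Scripts were tested on simulated data. Named genes were the members, at most 3 genes per list and comparison, those of smallest p, the 5 genes most like each member (1 of them is not reported here) and the 3 nearest coding genes on each side of Cyth1; further list genes that passed were named after their values were seen. Libraries of a group differed by far more than sampling noise (smallest chi-square per degree of freedom 17.5 over 209 pairs). Alternatives were DESeq2 1.42.0, other scaling, filter, batch and sample choices, a replicate block and a leukocyte covariate. Promoter sequences are RefSeq's, and protein sequences were not used here.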

Additional observations from a re-analysis of the deposited data

Results flagged for a closer look

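A single tumour stood apart from its group in 1 of the 20 sets of a member in a group of 7 to 10 tumours. Cyth2 in aged isotype replicate 4 was at 57.7 CPM, and the nearest of the other 6 tumours of the group was at 82.7 CPM. The gap took 0.943 of the group's whole range, above Dixon's critical value of 0.568 for 7 samples. Chance alone gives a gap above the critical value in about 1 of 20 such sets. The rate for a gap as wide as 0.943 was not computed. The same tumour had the highest Cyth1 of the aged tumours by CPM, at 50.6.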

How the results depend on the processing

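Over 26 alternative settings the 4 members gave 1008 values, of which 944 kept their direction and side of the threshold or moved by less than the spread. All 68 values of Cyth1 by age were below 0. That sign goes with the choice of the gene and the separation of the ages over all tumours, so it is a description only. For aged against young under anti-CTLA4, the Cyth4 call was lost without a filter on low counts (-0.32), with the leukocyte covariate (-0.15), without libraries of TMM factor under 0.8 (-0.32), in batch 1 (-0.42) and in batch 3 (-0.24), and the Cyth3 call in batch 3 (0.52). In the same comparison Cyth2 passed in batch 1 (0.34) and Cyth1 was at -2.12 in batch 3. Under anti-PD-L1, Cyth3 passed in DESeq2 (0.47, adjusted p = 0.0418), Cyth4 changed sign with the covariate (0.041), and Cyth1 was -2.49 without a batch term and -2.46 with the compared groups alone. Under isotype, Cyth2 was 0.11 and 0.13 and Cyth3 0.12 and 0.14 in those fits, and Cyth1 was -2.71 without low TMM libraries. The cause of these shifts was not tested. Shared replicate numbers did not pair tumours: of 113 same-numbered pairs, 42 had a correlation of deviations over 0.1 (lowest -0.51, median 0.01). The replicate block gave -0.29 for Cyth4 by age under anti-CTLA4 (adjusted p = 0.117), -0.046 for Cyth4 under anti-PD-L1 in young hosts and -0.0072 for Cyth3 between antibodies in young hosts, and it changed no other member call.

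Uncalled antibody differences also changed sign. Cyth1 under anti-PD-L1 in aged hosts was 0.10 without a batch term and 0.20 with the compared groups or batch 1 alone. Cyth2 in young hosts was 0.016 under anti-PD-L1 and 0.038 under anti-CTLA4 without a filter, 0.022 and 0.044 without low TMM libraries, and under anti-CTLA4 0.056 with the covariate, 0.078 with the compared groups and 0.070 in batch 2. Without a batch term, Cyth3 was -0.12 under anti-CTLA4 in young hosts, the differences between ages were 0.038 and 0.14 for Cyth2 and 0.26 for Cyth3, and anti-CTLA4 against anti-PD-L1 gave -0.13 and -0.25 for Cyth2 and Cyth3 in young and -0.020 for Cyth2 in aged hosts. Between antibodies in young hosts Cyth3 was -0.029 in batch 2 and Cyth2 was -0.24 in batch 3. Cyth1 under anti-CTLA4 in young hosts, which has no test, ran from -0.49 to 0.20 over the alternatives. Arf4 by age under anti-CTLA4 was -0.10 in batch 3.

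Leaving out each isotype library in turn, Cyth1 by age ran from -3.87 to -3.21 under isotype and Cyth3 by age under anti-PD-L1 from 0.47 to 0.52. Uncalled values whose sign changed had these ranges: -0.033 to 0.37 for Cyth1 under anti-CTLA4 in aged hosts; -0.0097 to 0.00099 between antibodies in aged hosts, -0.091 to 0.031 under anti-CTLA4 and -0.12 to 0.0075 under anti-PD-L1 in young hosts for Cyth2. For the differences between ages they were -0.068 to 0.048 and -0.10 to 0.025 for Cyth3 under anti-CTLA4 and anti-PD-L1 and -0.0066 to 0.11 for Cyth4 under anti-PD-L1, whose value in young hosts was -0.027 to 0.072.

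List genes past the threshold by age numbered 4 under isotype, 2 under anti-PD-L1 and 20 under anti-CTLA4. Under isotype they numbered 0 without a filter, with the replicate block or with the covariate, 9 without a batch term or in DESeq2, 11 without low TMM libraries, 2 with the compared groups, and 0 to 8 with 1 library left out. Under anti-PD-L1 they numbered 1 without a filter or with the covariate, 0 with the block and 5 in DESeq2, and under anti-CTLA4 12 with the covariate and 0 in batch 3. Of 750 values of other named genes by age, 107 were no longer past the threshold. In residuals after group and batch terms, the macrophage relation was -0.017 for Cyth2, 0.19 for Cyth3 and 0.51 for Cyth4. By CPM, Cyth1 made up a median of 12.8% of the family in aged tumours, against 17.6% by TPM. Under isotype no batch holds both ages, so age and batch cannot be told apart without the other groups, batch 3 holds 1 aged anti-CTLA4 tumour, and each member had at least 336 counts in every library, so counting error is small beside the spread between tumours.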
